A study of Mus musculus with 6 samples.

Results

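The Hox genes encode homeodomain transcription factors that lie in 4 chromosomal clusters, named A to D. They were taken from the arrays as every non-control probe whose gene name was Hox, a cluster letter and a number, and were grouped by that letter and by the number, the paralog group, which runs from 1 to 13. The rule found 38 genes with 49 probes, of 27670 genes on the array and of 39 Hox genes in RefSeq. The remaining gene, Hoxc11, was not analysed here. The HoxA cluster was measured by 11 genes, HoxB by 10, HoxC by 8 and HoxD by 9.

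RNA came from cultured metanephric kidneys of CD1 mouse embryos at E13.5. One of each pair of kidneys was exposed for 6 h to 2.0 µg/ml Scriptaid, a hydroxamate inhibitor of histone deacetylases (HDACs), and the other for 6 h to 2.0 µg/ml Nullscript, a related compound that serves as its inactive control. All kidneys were thus grown as explants in serum-containing medium and had a compound added, and each channel held RNA of the whole organ. The 3 biological replicates were each hybridised to 2 two-colour Agilent arrays with the dyes exchanged, so that 6 arrays were read.

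Within a cluster, genes of low paralog number lie at one end, are activated early and are used towards the head, and genes of high number lie at the other end and are used towards the tail. Members of a paralog group descend from one ancestral gene and often act in place of each other. In the mouse kidney the group 11 genes are required in the metanephric mesenchyme, where their products act with Eya1 and Pax2 on Six2 and Gdnf, and the group 10 genes are needed in the stroma. Acetylation of histones and the Polycomb and Trithorax complexes are part of how the clusters are opened and kept silent.

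Values below are log2 ratios, with the channel labelled Scriptaid on top and that labelled Nullscript below, given as mean ± SD over the 3 replicates after the 2 arrays of each had been averaged. "Higher" and "lower" refer to the channel labelled Scriptaid and are used of genes with a limma adjusted p under 0.05 over all 26500 genes tested. The direction was taken from the dye fields of the labels, and it is opposite to the one known for kidney regulators from the study's publication, which was not used here. The arrays also go against the labels in one respect. Of 10 genes known to rise under HDAC inhibitors in other cells, 8 were lower and 1 was higher (median -0.96), with -1.72 for the linker histone gene H1f2, -1.80 for the heat shock gene Hspa1a and -1.04 for the actin-severing protein gene Gsn. Of 7 genes known to fall, 5 were higher and none lower (median 0.73), with 1.90 for the cyclin gene Ccnd1 and 1.71 for Myc. Over all genes tested, 22.5% were higher and 23.7% lower. If the drug names of the 2 channels had been exchanged, every sign below would turn, so the channels are called by their labels throughout.

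On the 6 arrays, 91.5% to 96.5% of probe spots were well above background in a channel. Log2 ratios over all probes correlated at 0.87 to 0.94 between replicates with the same dyes. Within a replicate, its 2 arrays correlated at 0.75 to 0.86. Where both the replicate and the dye orientation differed, the correlation was 0.73 to 0.83, which overlaps the range within a replicate. Markers of kidney tissue were measured above background, with all 16 nephron progenitor, all 16 stroma and all 16 ureteric bud genes passing the filter. All 49 Hox probes passed the background filter, 47 of them well above background in both channels on all 6 arrays, and none was saturated. In RNA of a whole organ, fewer cells of a type and less RNA per cell cannot be told apart.

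Promoter sequence is shown for the genes at the ends of the HoxD cluster, Hoxd1 and Hoxd13, which were lower, and for both measured genes of group 11, Hoxa11 and Hoxd11, which were higher. RefSeq promoters of build GRCm38.p6, from 250 bases before to 50 after a start, were matched for 22 of the 38 genes, with 24 starts in all. The windows are chr2:74762730-74763029 (plus strand) for Hoxd1, chr2:74667975-74668274 (plus) for Hoxd13, chr6:52245761-52246060 (minus) for Hoxa11, and chr2:74679308-74679607 and chr2:74682073-74682372 (both plus) for the first and second starts of Hoxd11. Each contains the start of its transcript, so its last bases are exonic. Capitals mark matches, on either strand, to TATAAA (the TATA box), to CCAAT (bound by NF-Y) and GGGCGG (the GC box), and to AGGTCA (the half-site of retinoic acid and other nuclear receptors) and TGATNNAT (a site type bound by HOX with PBX proteins), and overlapping matches run together.
Hoxd1: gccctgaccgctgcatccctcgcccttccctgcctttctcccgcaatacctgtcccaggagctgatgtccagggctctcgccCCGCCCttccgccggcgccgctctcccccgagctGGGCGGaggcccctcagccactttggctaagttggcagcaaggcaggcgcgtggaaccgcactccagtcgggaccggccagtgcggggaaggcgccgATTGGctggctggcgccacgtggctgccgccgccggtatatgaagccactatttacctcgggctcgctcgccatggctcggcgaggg
Hoxd13: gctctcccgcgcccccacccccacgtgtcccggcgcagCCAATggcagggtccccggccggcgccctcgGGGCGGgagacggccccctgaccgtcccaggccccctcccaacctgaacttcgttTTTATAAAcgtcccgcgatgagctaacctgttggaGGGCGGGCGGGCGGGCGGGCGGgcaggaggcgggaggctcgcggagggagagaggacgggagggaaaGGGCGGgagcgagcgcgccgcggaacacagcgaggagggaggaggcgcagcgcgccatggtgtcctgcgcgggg
Hoxa11: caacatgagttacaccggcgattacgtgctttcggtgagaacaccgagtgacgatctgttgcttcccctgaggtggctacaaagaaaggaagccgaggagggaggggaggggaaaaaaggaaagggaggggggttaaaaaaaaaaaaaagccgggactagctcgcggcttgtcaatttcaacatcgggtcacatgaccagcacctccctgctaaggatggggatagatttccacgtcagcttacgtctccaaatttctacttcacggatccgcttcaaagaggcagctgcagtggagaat
Hoxd11, first start: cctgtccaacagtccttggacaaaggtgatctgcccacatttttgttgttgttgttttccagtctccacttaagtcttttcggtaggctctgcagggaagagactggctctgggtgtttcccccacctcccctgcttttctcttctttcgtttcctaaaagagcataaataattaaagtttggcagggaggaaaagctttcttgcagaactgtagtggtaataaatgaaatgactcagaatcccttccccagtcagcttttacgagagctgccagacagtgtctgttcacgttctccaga
Hoxd11, second start: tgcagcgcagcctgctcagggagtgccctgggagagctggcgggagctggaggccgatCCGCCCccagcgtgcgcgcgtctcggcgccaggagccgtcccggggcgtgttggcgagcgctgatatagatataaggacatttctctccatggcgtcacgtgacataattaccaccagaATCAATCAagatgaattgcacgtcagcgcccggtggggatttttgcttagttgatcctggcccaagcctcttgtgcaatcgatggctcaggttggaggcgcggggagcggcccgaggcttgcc
The window of Hoxd1 held 1 CCAAT and 2 GGGCGG, and that of Hoxd13 held 2 overlapping TATAAA, 1 CCAAT and 7 GGGCGG, 5 of which overlap in a single run. The second start of Hoxd11 had 1 GGGCGG and 1 TGATNNAT, while its first start and Hoxa11 had none of the 5 motifs in these letters. A Hox gene was counted once where any of its windows matched, whereas the shares over all promoters are of single windows. Over the 22 genes, CCAAT was present in 15, GGGCGG in 10, AGGTCA in 7, TATAAA in 4 and TGATNNAT in 4. Among all 32851 mouse promoter windows of the same length the shares were 37.4% for CCAAT, 35.7% for GGGCGG, 16.3% for AGGTCA, 13.6% for TATAAA and 8.85% for TGATNNAT. The median Hox window had 57.67% G and C and 14 CG dinucleotides, against 52.67% and 7 in all windows, with a range of 39.67% to 81.0% and of 4 to 45. A match is a string of letters and was not tested for binding.

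Among the 38 Hox genes, 25 were called, 16 of them higher and 9 lower, and 13 were not. Over all genes tested, 46.2% were called, 22.5% higher and 23.7% lower. At a fold of at least 1.5, 8 Hox genes were higher and 3 lower, where the shares over all genes were 6.39% and 4.54%. The median Hox ratio was 0.08, with 0.11, 0.02 and 0.12 in replicates 1, 2 and 3, beside -0.01 over all genes. The family therefore held genes far out on both sides, such as Hoxd1 at -1.37 and Hoxb2 at 1.46, around a middle near that of the array. In 29 genes all 3 replicates had one sign, and in 19 of the 25 called genes all 6 arrays did. The matching shares over all genes are not given here, so these 2 counts do not set the family apart. Levels of the channels, taken over the 3 replicates, did not overlap in 20 Hox genes, where 34.1% of all genes had no overlap.

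**Figure D1:**
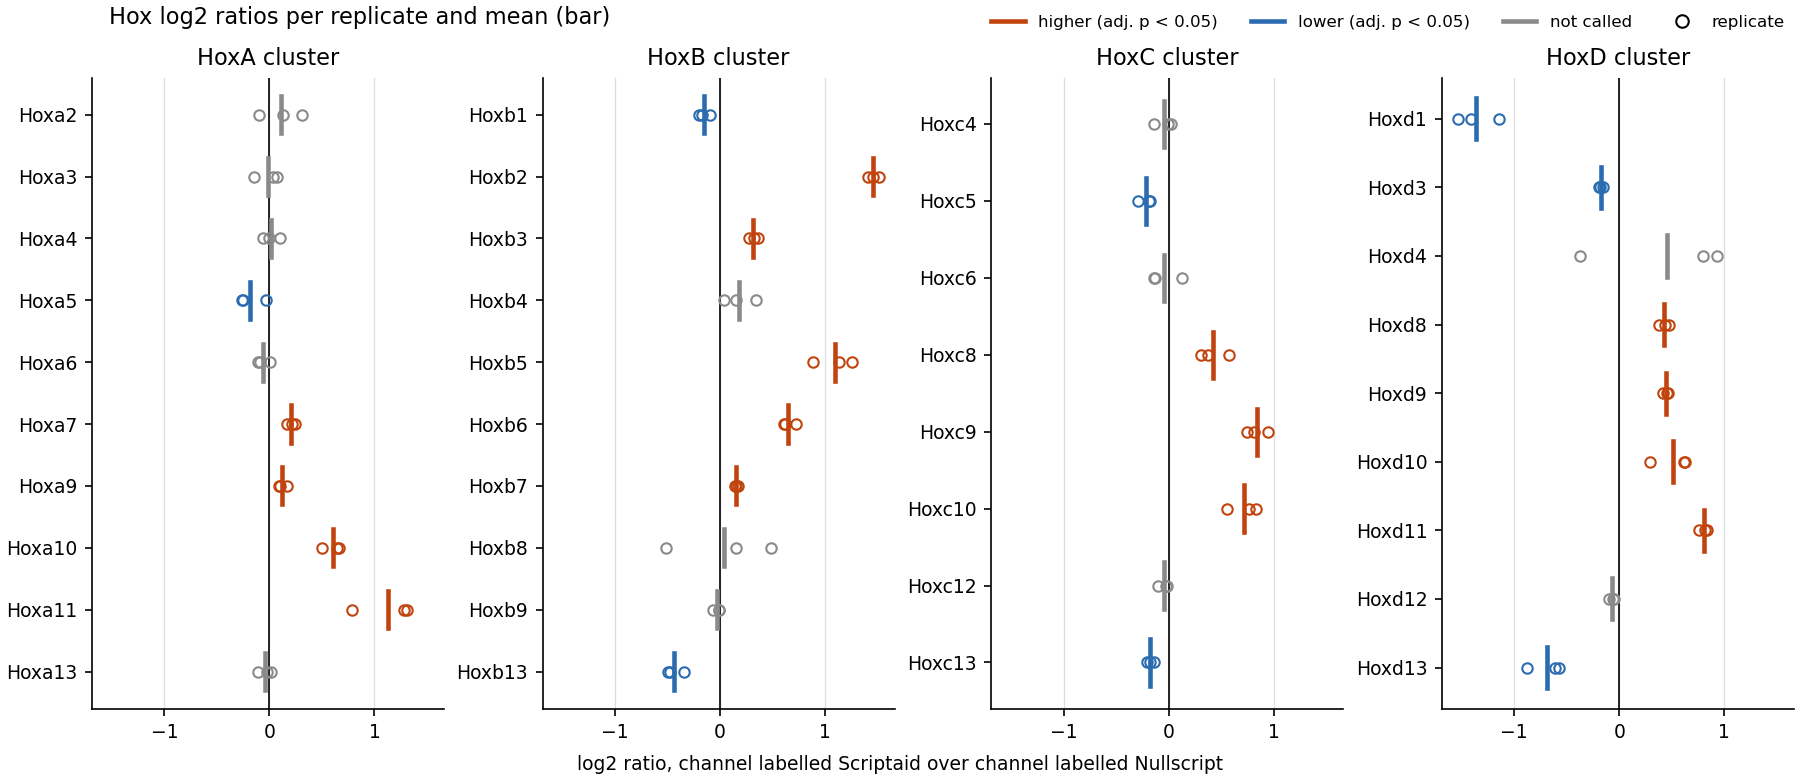
Log2 ratio (x axis, labelled Scriptaid over labelled Nullscript) of the Hox genes reported by name, one panel per cluster with paralog number increasing downwards; circles are the 3 replicates, bars their means, and colours the limma calls. Hoxd1 stands far left at -1.37, genes of groups 9 to 11 lie mostly right of 0, and Hoxd4 and Hoxb8 have replicates on both sides of 0.

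By paralog number the calls were unevenly spread. Groups 9 to 11 had 8 higher genes, none lower and 1 not called (median 0.60), while groups 12 and 13 had none higher and 3 lower of 6 (median -0.12). Groups 5 to 8 had 6 higher and 2 lower of 11 (median 0.16), and groups 1 to 4 had 2 higher and 4 lower of 12 (median 0.00). Every cluster held higher and lower genes: 4 and 2 of 11 in HoxA (median 0.01), 5 and 2 of 10 in HoxB (0.17), 3 and 2 of 8 in HoxC (-0.04), and 4 and 3 of 9 in HoxD (0.43). The HoxD median was -0.05 in replicate 2, against 0.46 and 0.44 in replicates 1 and 3. These blocks of paralog groups were drawn with the ratios known, and no difference between blocks or clusters was tested.

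**Figure D2:**
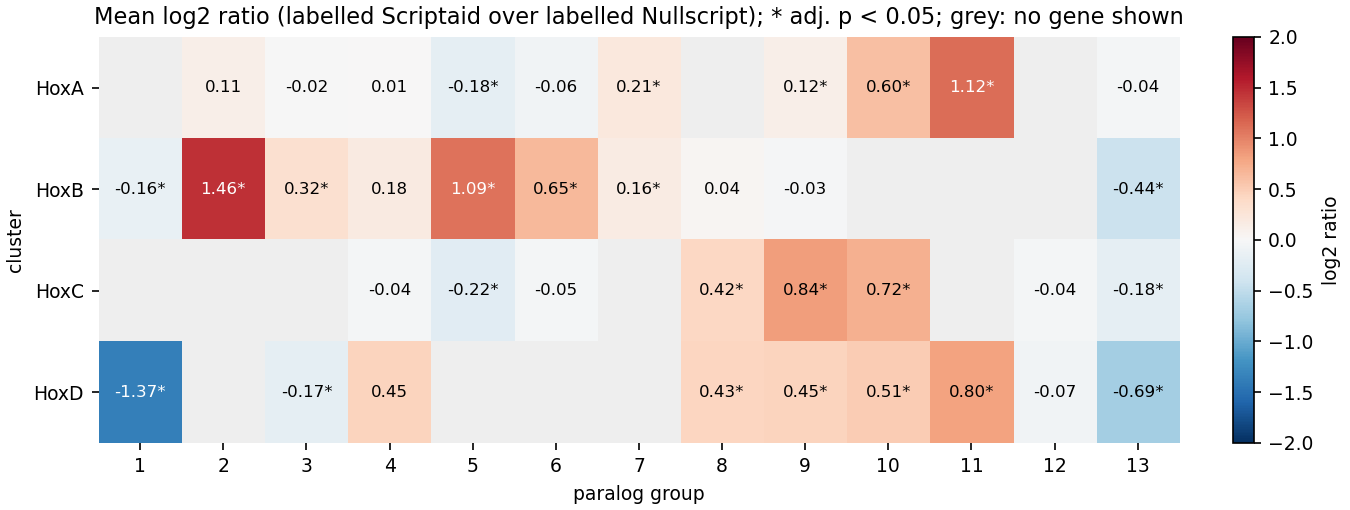
Mean log2 ratio of each Hox gene reported by name, with clusters in rows and paralog groups 1 to 13 in columns; red is higher and blue lower in the channel labelled Scriptaid, asterisks mark limma adjusted p under 0.05, and grey cells hold no gene reported here. Columns 10 and 11 are red in every measured cluster, column 1 is blue in Hoxb1 and Hoxd1, and column 13 is blue in all 4, with Hoxa13 not called.

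In group 1, Hoxd1 and Hoxb1 were lower. Hoxd1 had 9.74, 9.23 and 9.40 in the channel labelled Scriptaid, against 10.89, 10.64 and 10.93 in the channel labelled Nullscript. The 3 values of each channel did not overlap with those of the other, and the ratio of -1.37 ± 0.20 (limma adjusted p = 0.000269) was 2.58-fold, with 142 genes lower. Hoxd1 is also one of 3 Hox genes whose ratio differed between dye orientations (5.43% of all genes did), with -1.65 where Scriptaid was labelled in Cy3 and -1.08 where it was labelled in Cy5. Hoxb1, which specifies a hindbrain segment, was lower by far less, at -0.16 ± 0.06 (limma adjusted p = 0.0172), and lost its call without replicate 1 (adjusted p = 0.0581) and without replicate 3 (0.117).

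In group 2, Hoxb2 had the highest ratio of the family and Hoxa2, the selector gene of the second pharyngeal arch, was not called. Hoxb2, another hindbrain gene, had 13.38, 13.70 and 13.39 in the channel labelled Scriptaid, against 11.87, 12.29 and 11.94 in the channel labelled Nullscript. Every replicate was higher, with replicate 2 the brightest in both channels. The ratio of 1.46 ± 0.05 (limma adjusted p = 0.000113) was 2.74-fold, and 92 genes had a higher one. Its second probe had a ratio of 0.07 (limma adjusted p = 0.122), so the result rests on 1 of 2 probes. That second probe had a low signal, with a mean log2 intensity of 6.77. Hoxa2 had ratios of 0.31, -0.10 and 0.13, whose mean of 0.11 ± 0.21 did not pass (limma adjusted p = 0.327), although without replicate 2 it was 0.22 and passed (0.0433).

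In groups 3 and 4 the ratios were small or unsteady. Hoxb3 was higher at 0.32 ± 0.04 (limma adjusted p = 0.00115), Hoxd3 was lower at -0.17 ± 0.02 (0.00578), and Hoxa3, needed for thymus and parathyroid, was not called at -0.02 ± 0.12. The second probe of Hoxd3 was called in the other direction, at 0.39 ± 0.08 (limma adjusted p over probes 0.00177), so the sign of Hoxd3 depends on the probe. None of the 4 genes of group 4 was called. Hoxd4 had 11.57, 10.81 and 11.23 in the channel labelled Scriptaid, against 10.64, 11.19 and 10.43 in the channel labelled Nullscript. In replicates 1 and 3 the channel labelled Scriptaid was the brighter one, and in replicate 2 the dimmer one on both arrays. The mean of 0.45 ± 0.72 did not pass (limma adjusted p = 0.244), and only 0.0566% of genes had a larger SD; without replicate 2 the ratio was 0.86 and passed (0.000719). Hoxb4, used to expand blood stem cells, had 0.18 ± 0.15 (limma adjusted p = 0.0735) and passed without replicate 1, at 0.25 (0.0283).

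Groups 5 and 6 differed between clusters, with the HoxB members higher and the HoxA and HoxC members lower or not called. Hoxb5, which acts in enteric neural crest and lung, had 11.33, 11.25 and 11.42 in the channel labelled Scriptaid, against 10.07, 10.36 and 10.29 in the channel labelled Nullscript. The channels did not overlap, and the ratio was 1.09 ± 0.19 (limma adjusted p = 0.000404), 2.13-fold. Its paralogs Hoxa5, a lung and axial patterning gene, and Hoxc5 were lower, at -0.18 ± 0.13 (0.0481) and -0.22 ± 0.06 (0.00581). Hoxa5 lost its call without replicate 2 (adjusted p = 0.164) and without replicate 3 (0.239). Hoxc5 had -0.54 on the arrays with Scriptaid in Cy3 and 0.10 on those with it in Cy5, which is the only sign that turned with the dyes among the 3 dye-dependent Hox genes. Hoxb6 had 12.32, 12.40 and 12.43 in the channel labelled Scriptaid, against 11.71, 11.78 and 11.71 in the channel labelled Nullscript. Both channels were tight, and the ratio was 0.65 ± 0.06 (limma adjusted p = 0.000238), 1.57-fold, while its second probe had 0.07 (0.128). Hoxa6 and Hoxc6 had -0.06 ± 0.06 and -0.05 ± 0.15 and were not called, Hoxc6 passing at -0.14 without replicate 1 (adjusted p = 0.0386).

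In groups 7 and 8 the called genes were all higher, by modest amounts. Hoxa7 had 0.21 ± 0.04 (limma adjusted p = 0.00440) and Hoxb7, whose promoter is widely used to drive transgenes in the ureteric bud, 0.16 ± 0.02 (0.00836). Hoxb7 depended on the dyes, with 0.01 where Scriptaid was labelled in Cy3 and 0.31 where it was labelled in Cy5, and lost its call without replicate 3 (adjusted p = 0.0614). Hoxc8 and Hoxd8 had 0.42 ± 0.14 (0.00367) and 0.43 ± 0.05 (0.000498). The channel levels of Hoxc8 overlapped, and its ratio ran from 0.31 to 0.86 under the other ways of processing given below. Hoxb8 was not called, at 0.04 ± 0.51 (0.891), with replicate ratios of 0.49, -0.51 and 0.15.

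Group 9 was higher in 3 of 4 members. Hoxc9, which sets thoracic motor neuron identity, had 12.74, 12.80 and 12.73 in the channel labelled Scriptaid, against 11.79, 12.05 and 11.91 in the channel labelled Nullscript. The lowest value of the first channel was well above the highest of the other, and the ratio of 0.84 ± 0.10 (limma adjusted p = 0.000248) was 1.79-fold. Hoxd9 had 0.45 ± 0.02 (0.000338), with 0.27 by its second probe, which was also called (0.00344 over probes). Hoxa9, a gene of blood progenitors, had 0.12 ± 0.04 (0.0308) and lost its call without replicate 2 (0.120) and without replicate 3 (0.138). Hoxb9 had -0.03 ± 0.04 and was not called, whereas its second probe was higher at 0.28 ± 0.06 (0.00340 over probes).

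All 3 measured genes of group 10, which pattern the lumbar spine and the kidney stroma, were higher. Hoxa10 had 12.69, 12.61 and 12.74 in the channel labelled Scriptaid, against 12.03, 12.11 and 12.10 in the channel labelled Nullscript, a ratio of 0.60 ± 0.09 (limma adjusted p = 0.000429) or 1.52-fold. Hoxc10 had 10.93, 10.48 and 10.77 in the channel labelled Scriptaid, against 10.10, 9.93 and 10.00 in the channel labelled Nullscript, a ratio of 0.72 ± 0.15 (0.000727) or 1.64-fold. Its second probe gave 0.59 (0.000928 over probes), so both probes passed in the same direction. Hoxd10 had 10.85, 10.66 and 10.94 in the channel labelled Scriptaid, against 10.23, 10.37 and 10.32 in the channel labelled Nullscript, a ratio of 0.51 ± 0.19 (0.00455). None of the 3 genes overlapped between channels, and replicate 2 had the smallest ratio in each, at 0.50, 0.55 and 0.29.

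Both measured genes of group 11, whose products specify metanephric mesenchyme, were higher. Hoxa11 had 12.84, 12.99 and 13.11 in the channel labelled Scriptaid, against 11.56, 12.20 and 11.80 in the channel labelled Nullscript. The ratios were 1.28, 0.79 and 1.31, again with replicate 2 the smallest, and their mean of 1.12 ± 0.29 (limma adjusted p = 0.00115) was 2.18-fold, with 298 genes higher. A smallest ratio in replicate 2 was not particular to Hox genes. In replicate order, Eya1 had 1.79, 1.44 and 1.68 and Ccnd1 had 2.04, 1.69 and 1.97, whereas Pbx2 had 0.89, 0.96 and 1.04. The other gene of the group, Hoxd11, had 10.67, 10.35 and 10.29 in the channel labelled Scriptaid, against 9.85, 9.59 and 9.46 in the channel labelled Nullscript. Its ratios of 0.82, 0.76 and 0.83 were close together, with a mean of 0.80 ± 0.04 (limma adjusted p = 0.000147), or 1.75-fold. The promoter windows of both genes stand among the sequences above.

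Groups 12 and 13, the most posterior genes, had no higher member. Hoxd13, a gene of digits and genitalia, had 9.14, 9.01 and 8.63 in the channel labelled Scriptaid, against 9.75, 9.58 and 9.51 in the channel labelled Nullscript. The channels did not overlap, and the ratio was -0.69 ± 0.17 (limma adjusted p = 0.00113), 1.61-fold lower. Its second probe, of low signal with a mean log2 intensity of 6.88, had -0.10 ± 0.02 and did not pass (0.0515 over probes). Hoxb13, a gene of the tail bud and prostate, was lower at -0.44 ± 0.08 (0.00101). Hoxc13, which acts in hair follicles, was lower at -0.18 ± 0.03 (0.00670), a call that was lost without replicate 3 (0.0674). Hoxa13, needed in the limb bud and urogenital sinus, had -0.04 ± 0.06 (0.444). Its second probe was not well above background on any array in the channel labelled Scriptaid, and was so on 4 of 6 in the channel labelled Nullscript. Its measured ratio was -0.19 (limma adjusted p over probes 0.0107). With the Scriptaid level set no lower than the dimmest probe well above background, the bound was 1.12-fold lower. Both channels of this probe were near background, so the bound is not a firm least fold. That probe had log2 intensities of 6.10, 6.08 and 6.31 (mean 6.17) in the channel labelled Scriptaid, against 6.36, 6.22 and 6.49 (mean 6.36) in the channel labelled Nullscript, which overlap. Hoxd12, a limb gene, and Hoxc12 had -0.07 ± 0.03 and -0.04 ± 0.05 and were not called. Hoxc12 was dim, well above background on 2 of 6 arrays in the channel labelled Scriptaid and on 5 of 6 in the channel labelled Nullscript.

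**Figure D3:**
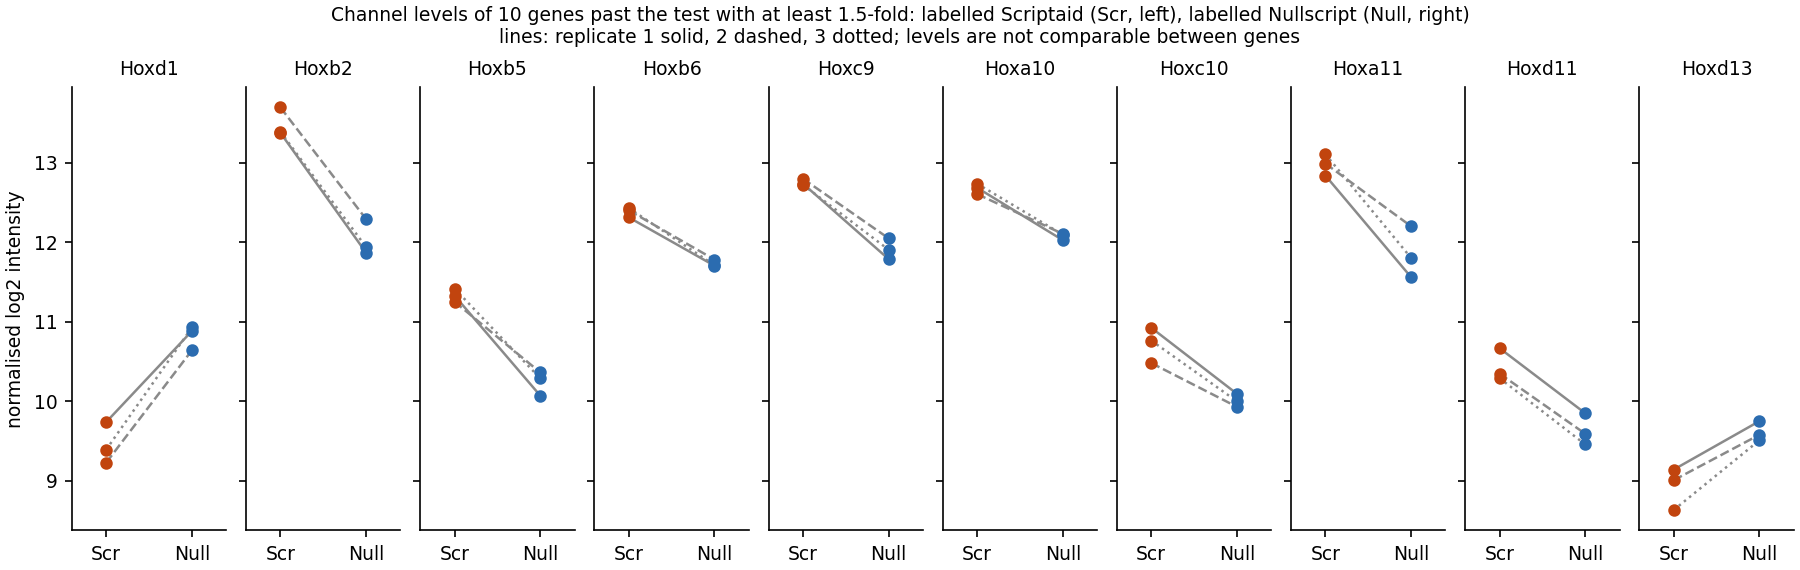
Normalised log2 intensity (y axis) of 10 Hox genes past the test with at least 1.5-fold, in the channel labelled Scriptaid (left of each panel) and the channel labelled Nullscript (right); lines join the channels of a replicate. In every panel the 3 lines slope one way, downwards to the right in 8 genes and upwards in Hoxd1 and Hoxd13.

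Of the 38 genes, 27 had 1 probe and 11 had 2, and each gene is given above by its brighter probe. Taken as probes, 21 of 49 were higher, 9 lower and 19 not called, while 45.2% of all probes were called, 23.5% higher and 21.8% lower. The 2 probes of a gene had the same sign in 6 of 11 genes. They were both called in the same direction in 2, Hoxc10 and Hoxd9, and in opposite directions in 1, Hoxd3. The gaps were widest in Hoxb2 (1.46 and 0.07), Hoxd13 (-0.69 and -0.10), Hoxb6 (0.65 and 0.07) and Hoxd3 (-0.17 and 0.39), with the brighter probe first. The transcripts that each probe reads were not compared here.

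**Figure D4:**
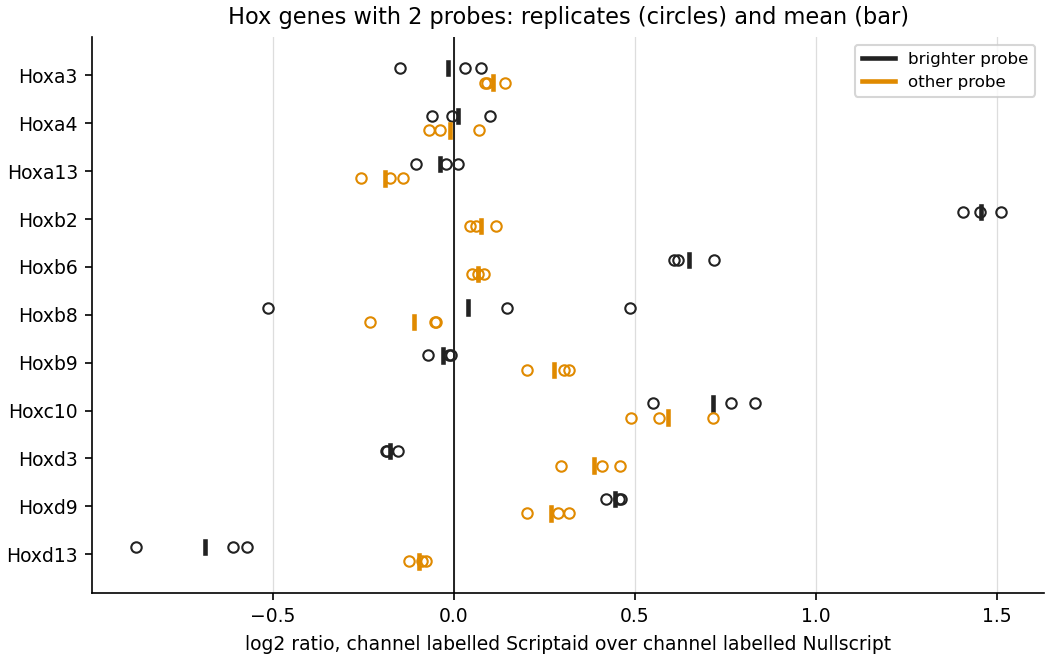
Log2 ratio (x axis, labelled Scriptaid over labelled Nullscript) of both probes of the 11 Hox genes with 2 probes; circles are replicates and bars means. Only Hoxc10 and Hoxd9 have both probes called on the same side, and in Hoxb2 the brighter probe lies at 1.46 and the other at 0.07.

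Genes known to act with the Hox proteins or on the clusters were read from lists, beside 22.5% higher and 23.7% lower over all genes tested. Of 9 cofactors of the TALE homeodomain class, which bind DNA with HOX proteins, 5 were higher and 2 lower (median 0.33). Pbx2 had 0.96 ± 0.07 and Meis2 0.63 ± 0.08, and Pbx4 had -1.11 ± 0.04, with -0.45 by its other probe. Of 8 genes that act with or downstream of the group 11 proteins in the kidney, 6 were higher and 1 lower (median 0.34). Eya1, the cofactor of these proteins, had 1.64 ± 0.18, with 0.48 by its other probe, and Itga8, an integrin of the mesenchyme, had 1.00 ± 0.22, with 0.12 to 0.97 by its other probes. Six2 and Gdnf, their targets, had 0.41 ± 0.02 and 0.37 ± 0.11.

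Of 34 chromatin and signalling regulators of the clusters, 11 were higher, 5 lower and 18 not called (median 0.08), a called share near the 46.2% of all genes. Cbx7, a Polycomb chromodomain protein, had -1.50 ± 0.16. Ctcf, which sets boundaries between chromatin domains in the clusters, had 1.05 ± 0.07, the Polycomb gene Bmi1 0.89 ± 0.26 and the Trithorax-complex gene Ash2l 0.62 ± 0.02. Among 13 ParaHox and other homeobox genes related or linked to the clusters, none was higher and 3 were lower (median -0.06): Gbx2, a gene of the midbrain and hindbrain border, at -1.43, Mnx1, of motor neurons, at -0.35, and Gsx2, of the forebrain, at -0.20. The lower share of this list is near the 23.7% of all genes that were lower, while 22.5% of all genes were higher.

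Genes that lie inside or next to the clusters were read in the same way. Of 4 measured non-Hox genes within the cluster spans, all non-coding, 1 was lower, Hoxd3os1, at -0.27, with 0.32 by its other probe. Of the 24 nearest measured genes, 3 on each side of each cluster, 4 were higher and 8 lower (median -0.04), near the 46.2% of all genes that were called. Skap2 lies next to the HoxA cluster and Skap1 next to the HoxB cluster, both genes of immune cell adaptor proteins, and both were lower, at -0.98 ± 0.10 (limma adjusted p = 0.000177) and -0.91 ± 0.08 (0.000160). A second probe of Skap2 gave -1.14. Beyond Hoxd1, Mtx2, a mitochondrial import gene, had -0.04 and was not called, and beyond the group 13 ends Evx1 and Evx2, homeobox genes of the limb and spinal cord, had 0.02 and -0.11 and were not called.

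Markers of the cell types of the organ moved in the same arrays, where 22.5% of all genes were higher and 23.7% lower. The nephron progenitor list shares Six2, Eya1, Osr1, Sall1, Gdnf and Itga8 with the list of group 11 partners above, so those 2 counts are not separate. Its lower gene was Dapl1, at -1.16. Nephron progenitor genes, the cells that express the group 11 genes, were higher in 14 of 16 and lower in 1 (median 0.73), with a summed intensity of 75965 to 89989 per replicate in the channel labelled Scriptaid and 40526 to 42338 in the channel labelled Nullscript. Stroma genes were higher in 12 of 16 and lower in 2 (median 0.54), with sums of 180987 to 191521 in the channel labelled Scriptaid and 154537 to 170825 in the channel labelled Nullscript. Endothelium genes were higher in 13 of 16 and lower in 2 (median 0.74), with sums of 56010 to 56429 in the channel labelled Scriptaid and 30679 to 37429 in the channel labelled Nullscript. Ureteric bud genes were higher in 8 of 16 and lower in 2 (median 0.16), and their sums overlapped, at 62900 to 76396 in the channel labelled Scriptaid and 61605 to 73596 in the channel labelled Nullscript. Nerve and neural crest genes were higher in 2 of 14 and lower in 6 (median -0.05). Their sums also overlapped, at 14279 to 15405 in the channel labelled Scriptaid and 15367 to 16085 in the channel labelled Nullscript. No gene of these lists was at background on all arrays. The part of these cell types in the Hox ratios was not tested.

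**Figure D5:**
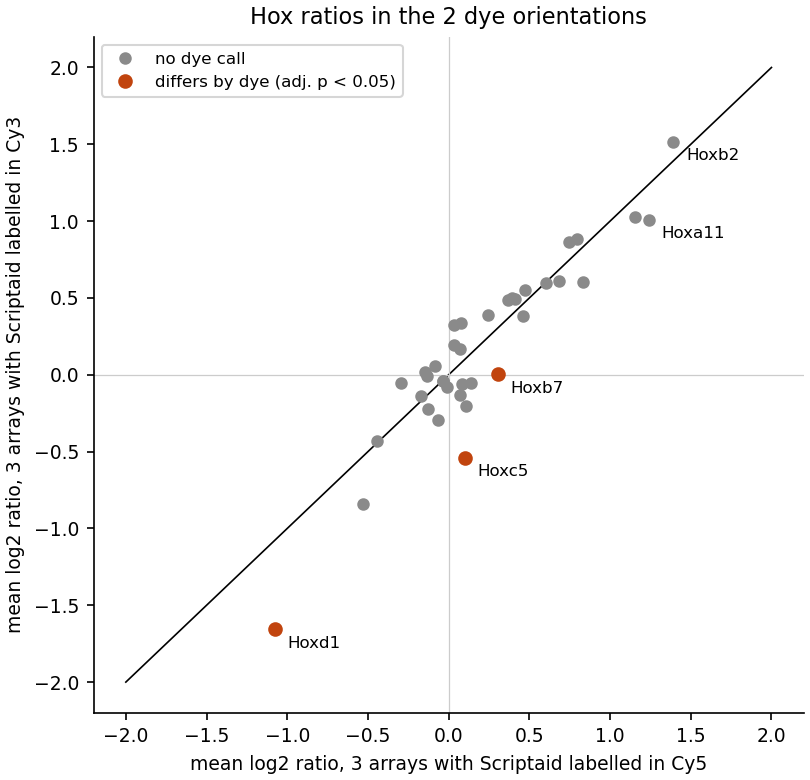
Mean log2 ratio of each Hox gene reported by name (labelled Scriptaid over labelled Nullscript) from the 3 arrays with Cy5 on Scriptaid (x axis) and the 3 with Cy3 on it (y axis); the line marks equal ratios and orange points are the genes whose ratio differed by dye. Most genes lie near the line, and Hoxc5, Hoxd1 and Hoxb7 lie below it, Hoxc5 at 0.10 and -0.54.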

How the data were processed

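Each array gave an Agilent Feature Extraction 9.1.3.1 text file of spot intensity values, per the file headers, and the deposited value table held the log10 ratio of each array, which equals the scanner's ratio up to its sign. The deposited intensity values of the mean signal and local background were used. In limma 3.58.1 under R 4.3.3 they were corrected by normexp (offset 50) and loess-normalised within arrays. Control spots had weight 0 and outlier spots were left out, and spots of a probe were averaged. Channel levels were set by Aquantile after loess, and no level of one probe was set against another's. The 2 dye-swapped arrays of a replicate were averaged, so the fit had 3 replicates. They are called biological replicates in the labels, and the series text gives a swap on 2 of 4 arrays where the labels give 6 arrays, 3 per orientation. The array numbers pair the 2 arrays of a replicate by the labels, and their deviations correlated at 0.61, 0.13 and 0.01.

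A probe needed a signal well above background in 3 or more of the 6 arrays, in one drug's channel or the other; 39407 of 41174 passed, of which 39405 had values in enough replicates. A gene is its brightest probe, with Benjamini-Hochberg adjustment of p-values over all 26500 genes or over all probes. Names came from the array, updated through RefSeq by accession for 22951 probes, by symbol for 6659 and by older symbol for 3109, while 8455 kept the array's name. The test was checked on simulated data. The number of arrays limits the precision. Replicates 1 and 2 lay on one slide and replicate 3 on another. Per-replicate values are given for Hox genes past the test with at least 1.5-fold or with a bound and for groups 10 and 11; Hoxd4 and Hoxb8 were added after their values were seen. From other lists up to 4 members with the largest ratios past the test are named, and other genes named, such as Mtx2 and Evx1, are cluster neighbours. One Hox gene is counted in the totals and is otherwise not reported here. The members, lists and tests were chosen with earlier results of these data known. Alternatives varied the background correction, normalization, filter, probes, outlier and saturated spots, dye orientation, slide, replicate block and replicates.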

Additional observations from a re-analysis of the deposited data

Results flagged for a closer look

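For 3 Hox genes the ratio of labelled Scriptaid over labelled Nullscript differed between the 2 dye orientations in a limma fit to the 6 arrays with the replicate as a random block, where 5.43% of all genes did. Hoxc5 differed by 0.64 (adjusted p = 0.000740), with 0.10 with Cy5 on Scriptaid (3 arrays) and -0.54 with Cy3 on it (3 arrays), so that its sign turned. Hoxd1 differed by 0.58 (adjusted p = 0.0434), with -1.08 and -1.65 in the same order, and was below 0 in both. Hoxb7 differed by 0.30 (adjusted p = 0.0179), with 0.31 and 0.01. The mean over both orientations is the value given for each of these genes above.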

How the results depend on the processing

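Of the 25 Hox genes called, 17 kept their call under all 18 alternatives, with 14 to 18 higher and 6 to 10 lower. Calls were lost under at least 1 alternative for Hoxa5, Hoxa7, Hoxa9, Hoxb1, Hoxb7, Hoxc5, Hoxc13 and Hoxd3. Among genes that passed in the fit given above or in the alternative that turned them, the sign turned in 3: with the mean over a gene's probes Hoxb9 was 0.12 (limma adjusted p = 0.0253) and Hoxd3 0.11 (0.0395), and with only the Cy5-Scriptaid arrays Hoxc5 was 0.10 (0.149). The sign of Hoxa3, Hoxa4, Hoxa6, Hoxb8, Hoxc4 and Hoxc6, which were not called above, also turned under at least 1 alternative, with no call there. Leaving out a replicate gave 4 to 10 lower Hox probes and 4003 to 5698 lower genes in all, both lowest without replicate 3. The count of 3 dye-dependent Hox genes was 1 with the scanner's processed signals, 1 with the deposited ratios, 26 with median centring in place of loess, and 1 to 7 without a replicate, where the block correlation of all 6 arrays was used. The cause of these changes was not tested.

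With the 6 arrays fitted with the replicate block and dye orientation, 17 Hox genes were higher and 9 lower, 21 probes higher and 11 lower, and over all genes 6302 higher and 6549 lower. With the slide as a block, 15 Hox genes were higher and 7 lower. The number of replicates and the signal over background of dim genes such as Hoxc12 limit small ratios: Hoxc12 was -0.30 with median centring (adjusted p = 0.00551), against -0.04 with loess. Other genes of low signal kept their sign but changed in size over the alternatives. Hoxc8 ran from 0.31 to 0.86, Hoxb13 from -0.73 to -0.41, Hoxc13 from -0.50 to -0.13 and Hoxb1 from -0.39 to -0.13.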

Other observations

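Hoxb8, a Hox gene known from spinal cord and blood progenitors, had levels that differed more between replicates than between drugs, and it was singled out after its values were seen. Its brighter probe had 8.48, 9.94 and 8.53 in the channel labelled Scriptaid and 7.99, 10.45 and 8.39 in the channel labelled Nullscript, so that replicate 2 was the brightest in both channels. Its second probe had 7.99, 8.08 and 8.32 in the channel labelled Scriptaid and 8.04, 8.14 and 8.56 in the channel labelled Nullscript, with no such step in replicate 2. Only 0.147% of genes had a larger SD of the ratio over replicates than the brighter Hoxb8 probe. Replicate 2 was also the one in which Hoxd4 had the opposite sign.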
